A study of Mus musculus with 7 samples.

Results

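The 8 genes described here encode the receptors of the gamma-chain cytokine family, and they were chosen by gene symbol from the deposited expression table: Il2ra, Il2rb, Il2rg, Il7r, Il4ra, Il15ra, Il21r and Il9r. All 8 were found among the 47729 genes of the count files, of which 25469 had a count in at least 1 library. RNA-sequencing was done on splenic CD4+CD25+ cells, the surface phenotype of regulatory T cells (Tregs), from wild-type (WT) mice that had no other treatment stated in the labels. The aged group was 18 months old (3 libraries) and the young group 8 weeks old (4 libraries), and the paper's methods give male C57BL/6 mice and an age of 10 weeks for the young. The labels call the libraries biological replicates, and whether a library held cells of a single animal is not given in the sources used here. The paper's methods name a Treg isolation kit, with a check by flow cytometry, where they describe the cells for transfusion, and do not say whether the cells for sequencing were isolated in the same way. The isolate could hold other cells. CD25 is the protein made by Il2ra, so the labelled phenotype includes the product of a gene that is compared here. Means are given ± SD over libraries (n = 3 aged, n = 4 young). The question of each comparison was how the transcripts of these receptors differed between the ages.

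The cytokines IL-2, IL-4, IL-7, IL-9, IL-15 and IL-21 all signal through receptors that contain the common gamma chain, encoded by Il2rg. Each cytokine adds its own chain, and IL-2 and IL-15 also share the beta chain encoded by Il2rb. The gamma chain binds the kinase JAK3, the partner chains bind JAK1, and the kinases activate STAT5, STAT6 or STAT3 according to the receptor. Tregs carry much of the high-affinity IL-2 receptor alpha chain, depend on IL-2 made by other T cells, and as a rule carry little of the IL-7 receptor, which is abundant on naive and memory T cells.

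Gene counts per library were 10734234 to 13649310, and each young library was deeper than each aged one. The lowest count of a receptor gene in any library was 114 (Il15ra), and a count of 3 equals 0.210 to 0.302 CPM, the count scaled to library size after TMM normalisation, so every receptor lay far above the limit of detection. Foxp3, which defines Tregs, was at 447 to 622 CPM in aged and 394 to 518 CPM in young libraries. Of the 8 Treg markers 2 were called lower in aged libraries, Gpr83 (log2 fold change -1.71, SE 0.232, adjusted p = 0.00274 in edgeR) and Lrrc32 (-1.02, SE 0.181, adjusted p = 0.00830), and none was called higher. The median log2 fold change of the 8 was 0.21, and Ctla4 (0.86), Tnfrsf18 (0.49), Ikzf2 (0.46), Capg (0.21) and Nrp1 (0.05) had positive values that were not called. None of the pan T, Treg or other cell type markers was at 0 in every library. Transcripts of other blood cells were present in each library. The summed level of 6 erythroid genes ranged from 12381 to 156886 CPM and that of 8 B cell genes from 946 to 2183 CPM, with overlap between the ages. The 8 neutrophil genes summed to 4302, 1631 and 667 CPM in aged replicates 1, 2 and 3 and to 227 to 790 CPM in young libraries, and 5 of the 8 were called higher in aged. The platelet genes summed to 20.2 to 39.5 CPM in aged and 8.20 to 17.3 CPM in young libraries. Called lower in aged were 3 of 9 monocyte or macrophage genes (Csf1r, Adgre1 and Vcam1), 2 of 7 dendritic cell genes (Clec9a and Siglech, with Zbtb46 higher) and 1 of 5 NK cell genes (Klrb1c). The summed monocyte or macrophage genes were at 428 to 660 CPM in aged and 537 to 648 CPM in young libraries. Called higher were Gzmk of the 4 CD8 T cell genes and Prdm1 of the 6 plasma cell genes, and of the 10 pan T genes Cd3e was higher and Cd5 lower. Beside these counts, 9.80% of all genes tested were called higher in aged libraries and 6.94% lower. Of the 19 marker calls in edgeR, with Ppbp of the platelet genes among them, 9 were made in every fit without 1 library. Cd3e was called in 2 of the 7 such fits (adjusted p up to 0.0952) and Cd5 in 1 (up to 0.142). Of the neutrophil genes, S100a8 was called in 2 of the 7, S100a9 in 4 and Retnlg in 5. Under the processing alternatives described below, other than the replicate block, Cd3e, Cd5, S100a8, Zbtb46 and Clec9a each lost their call at least once. The part of these transcripts in the results below was not tested. In these bulk samples, fewer cells of a type and less RNA per cell cannot be told apart.

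On GRCm38, 4 of the 8 genes form 2 neighbouring pairs. Il2ra (chr2:11642807-11693193, plus strand) was followed after 12.1 kb by Il15ra (chr2:11705290-11734317, plus strand). Il4ra (chr7:125552120-125579474, plus strand) was followed after 24.0 kb by Il21r (chr7:125603429-125633570, plus strand). No annotated gene lay between the genes of either pair. Il7r (chr15:9505788-9530176) and Il2rb (chr15:78479256-78495271) lie far apart on chromosome 15, Il9r is at chr11:32187541-32200279 and Il2rg at chrX:101264378-101268255, all on the minus strand. Exons of Il2rg shared 30.5% of their length with the annotated gene Gm20489 and those of Il4ra 9.51% with Gm44876, and counts of these parts may be split or lost because strand was not used in the counting. The other 6 genes shared no exon sequence.

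The RefSeq promoter table (GRCm38.p6) held an entry for 7 of the 8 genes, with 2 start sites for Il15ra and none listed for Il2rb. The 250 bases before the start site are printed for Il2ra, which gave the largest negative difference between the ages, and for the 4 genes that were called higher in aged mice. Capitals mark matches to binding motifs of transcription factors known in T cells, read on either strand.
Il2ra, chr2:11642542-11642791, plus strand: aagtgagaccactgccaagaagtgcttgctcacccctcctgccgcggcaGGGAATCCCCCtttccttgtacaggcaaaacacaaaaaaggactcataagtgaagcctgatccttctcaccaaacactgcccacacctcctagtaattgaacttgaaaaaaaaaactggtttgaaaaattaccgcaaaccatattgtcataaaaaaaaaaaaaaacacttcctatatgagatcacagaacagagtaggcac
Il15ra, first start site, chr2:11705043-11705292, plus strand: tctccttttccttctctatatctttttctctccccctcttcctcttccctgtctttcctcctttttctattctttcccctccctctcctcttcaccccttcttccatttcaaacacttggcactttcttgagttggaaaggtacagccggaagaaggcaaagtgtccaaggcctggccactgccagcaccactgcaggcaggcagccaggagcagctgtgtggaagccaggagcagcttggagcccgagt
Il21r, chr7:125603179-125603428, plus strand: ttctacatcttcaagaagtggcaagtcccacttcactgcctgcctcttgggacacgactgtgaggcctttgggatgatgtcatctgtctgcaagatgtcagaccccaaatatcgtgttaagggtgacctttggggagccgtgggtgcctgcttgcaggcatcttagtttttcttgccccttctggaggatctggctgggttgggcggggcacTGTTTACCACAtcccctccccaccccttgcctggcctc
Il2rg, chrX:101268256-101268505, minus strand: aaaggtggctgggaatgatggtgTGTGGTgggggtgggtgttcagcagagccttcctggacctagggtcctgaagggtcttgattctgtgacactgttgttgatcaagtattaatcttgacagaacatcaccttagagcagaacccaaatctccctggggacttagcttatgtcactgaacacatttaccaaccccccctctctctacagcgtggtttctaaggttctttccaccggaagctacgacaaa
Il9r, chr11:32200280-32200529, minus strand: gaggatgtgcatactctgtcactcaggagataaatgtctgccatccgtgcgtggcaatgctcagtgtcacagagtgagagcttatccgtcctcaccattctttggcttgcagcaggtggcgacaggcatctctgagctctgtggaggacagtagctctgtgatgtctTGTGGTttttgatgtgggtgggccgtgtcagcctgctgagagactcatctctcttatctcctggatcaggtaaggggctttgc
The capitals in Il2ra are a pair of overlapping matches to the NF-kB motif, searched by name, which 4.51% of 32851 promoter windows held. In Il2rg and Il9r they are the RUNX motif TGTGGT, which 16.8% of windows held. In Il21r they are the reverse complement of the FOXO motif GTAAACA (3.65% of windows) and, overlapping it, that of the RUNX motif. Windows of 300 bases, 250 before and 50 after the start, were searched. Il7r also held TGTGGT, so that 4 of the 7 genes had this motif, and Il7r was the only one with the STAT motif TTCNNNGAA (8.30% of windows). Il4ra held an NF-kB match. Neither Il15ra window held any of the 5 motifs, and no receptor gene held the IRF motif (3.44% of windows). These matches describe letters in a window and not binding.

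Of the 8 receptor genes, 4 were higher in the aged CD4+CD25+ isolates and none was lower with an adjusted p-value under 0.05 in edgeR's quasi-likelihood test across 13904 genes: Il15ra, Il21r, Il9r and Il2rg. Across all genes tested, 9.80% were called higher, 6.94% lower and 16.7% in either direction. DESeq2 called 5 of the 8 genes, these 4 in the same direction and Il2ra lower. Across all genes it called 2884 of the 17036 that had an adjusted p. The receptor count was 1 (Il15ra) with library size only or with pan T transcripts as library size. It was 1 or 2 in 6 of the 7 fits without 1 library (aged replicate 2 or 3, or any young library) and 5 without aged replicate 1, where 3 were higher and 2 lower (Il2ra and Il4ra). With limma voom, and with GC content and length trends removed, 3 were higher and 1 lower (Il2ra). The median log2 fold change of the 8 genes was 0.32, beside 0.02 for all genes tested, with 5 values above 0 and 3 below. Aged and young libraries did not overlap for 4 of the 8 genes, and 29.9% of all genes did not overlap. The receptor genes spread in both directions, with Il2ra at the low end and Il15ra at the high end.

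**Figure D1:**
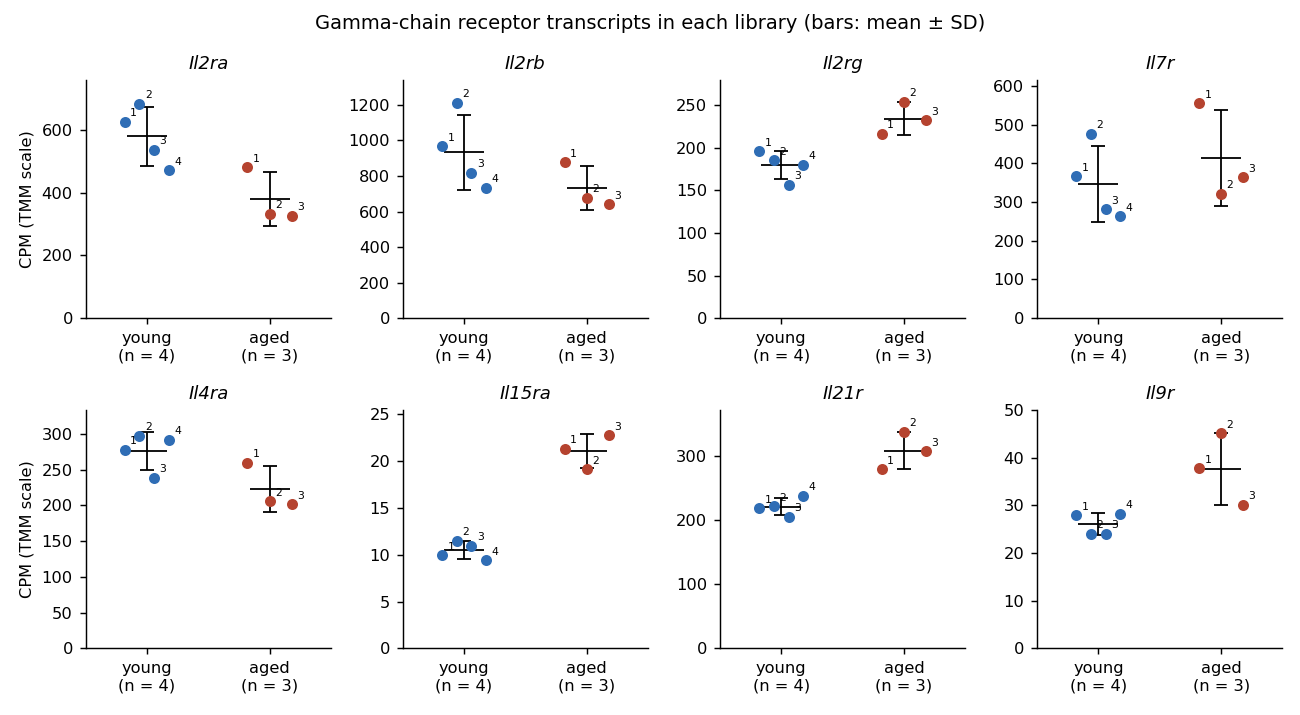
Normalised level (CPM, vertical axis from 0) of each receptor gene in every library, with replicate numbers beside the points and bars for mean ± SD (4 young, 3 aged). The aged points lie above all young points for Il2rg, Il15ra, Il21r and Il9r, whereas aged replicate 1 lies among the young points for Il2ra and is the highest library for Il7r.

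Il2ra encodes the alpha chain of the IL-2 receptor, which raises its affinity for IL-2. Its level was 481, 333 and 327 CPM for the aged libraries in the order of their replicate numbers, and 626, 684, 536 and 471 CPM for the young ones. Aged replicate 1 lay just above young replicate 4, and the other aged libraries lay below every young library. The aged mean was 380 ± 87.0 CPM and the young mean 579 ± 94.3 CPM, with a log2 fold change of -0.61 (SE 0.188), and it missed the threshold in edgeR (adjusted p = 0.0588). It passed with DESeq2 (adjusted p = 0.00672) and in 4 more of the 18 alternatives, among them the edgeR fit without aged replicate 1 (log2 fold change -0.81, adjusted p = 0.0158).

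Il2rb encodes the signalling beta chain shared by the IL-2 and IL-15 receptors. Its levels were 877, 679 and 642 CPM in aged and 968, 1212, 819 and 733 CPM in young libraries. The ranges overlapped widely, and young replicate 2 was the highest. The log2 fold change was -0.35 (SE 0.199) with an adjusted p of 0.262 in edgeR, and no alternative called it. Without 1 library the value ranged from -0.50 to -0.20, and -0.20 was the value without young replicate 2. The spread between replicates of an age (17.2% and 22.5% of the mean in aged and young) was about as large as the difference between the ages (-21.5%).

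Il2rg, the chain common to the family, was called higher in aged libraries. It was at 216, 254 and 233 CPM in aged and 196, 185, 157 and 180 CPM in young libraries, so that the lowest aged library was above the highest young one. The mean rose from 180 ± 16.5 CPM to 234 ± 19.0 CPM, a log2 fold change of 0.39 (SE 0.110, adjusted p = 0.0459 in edgeR). This call was close to the threshold. It was lost in each edgeR fit without 1 library other than aged replicate 1 (aged replicates 2 and 3, young replicates 1 to 4), with adjusted p from 0.0651 to 0.118, and the direction stayed positive in these fits. With GC content and length trends removed the log2 fold change was 0.24 (adjusted p = 0.139 in edgeR), and with no filter on low counts the adjusted p was 0.0939.

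Il21r encodes the receptor chain for IL-21, a cytokine of T follicular helper cells. Its levels were 279, 337 and 307 CPM in aged and 218, 221, 205 and 237 CPM in young libraries, with no overlap. The mean rose from 220 ± 13.3 to 308 ± 29.0 CPM, a log2 fold change of 0.48 (SE 0.105, adjusted p = 0.0185 in edgeR). Without aged replicate 2, aged replicate 3, young replicate 1 or young replicate 3 the adjusted p was 0.0525 to 0.0619.

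Il15ra, the private high-affinity chain for IL-15, which can also present IL-15 to neighbouring cells, gave the largest difference of the family. It was at 21.3, 19.1 and 22.7 CPM in aged and 9.96, 11.5, 11.0 and 9.39 CPM in young libraries. Each aged library was far above each young one, on 190 to 244 counts against 114 to 164. The mean rose 2.01-fold, from 10.5 ± 0.953 to 21.1 ± 1.82 CPM, with a log2 fold change of 1.01 (SE 0.129, adjusted p = 0.00218 in edgeR). It was the only receptor gene called in each of the 7 fits without 1 library (adjusted p from 0.00375 to 0.0109). The neutrophil sums of aged replicates 1, 2 and 3 were 4302, 1631 and 667 CPM, and their part in the Il15ra level was not tested.

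Il9r encodes the receptor chain for IL-9, a growth factor of mast cells and some T cells. It was at 37.8, 45.2 and 30.1 CPM in aged and 28.0, 24.1, 24.1 and 28.2 CPM in young libraries. Aged replicate 3 was only slightly above the highest young libraries. The mean rose from 26.1 ± 2.32 to 37.7 ± 7.54 CPM, a log2 fold change of 0.53 (SE 0.149, adjusted p = 0.0436 in edgeR). Of the 7 fits without 1 library, only that without aged replicate 3 kept this call. Leaving out aged replicate 1, aged replicate 2 or any young library gave adjusted p from 0.0683 to 0.125, and limma voom gave 0.0501.

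Il7r encodes the alpha chain of the IL-7 receptor, CD127. It was at 555, 322 and 364 CPM in aged and 366, 477, 281 and 264 CPM in young libraries. The 2 groups overlapped, and aged replicate 1 stood above all other libraries. The log2 fold change was 0.25 (SE 0.253, adjusted p = 0.532 in edgeR), and without that library it was -0.021 (adjusted p = 0.957). Other libraries moved it too, to 0.41 without aged replicate 2, 0.45 without young replicate 2, 0.17 without young replicate 3 and 0.14 without young replicate 4. With GC content and length trends removed it was 0.13, and no alternative called it. Aged replicate 1 also had the highest sum of neutrophil transcripts, whose part in this level was not tested.

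Il4ra encodes the IL-4 receptor alpha chain, also used by IL-13. It was at 260, 206 and 202 CPM in aged and 278, 298, 239 and 292 CPM in young libraries. Aged replicate 1 lay above young replicate 3, and the other aged libraries lay below all young ones. The log2 fold change was -0.31 (SE 0.131, adjusted p = 0.136 in edgeR), and it passed the threshold only without aged replicate 1 (-0.44, adjusted p = 0.0371).

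**Figure D2:**
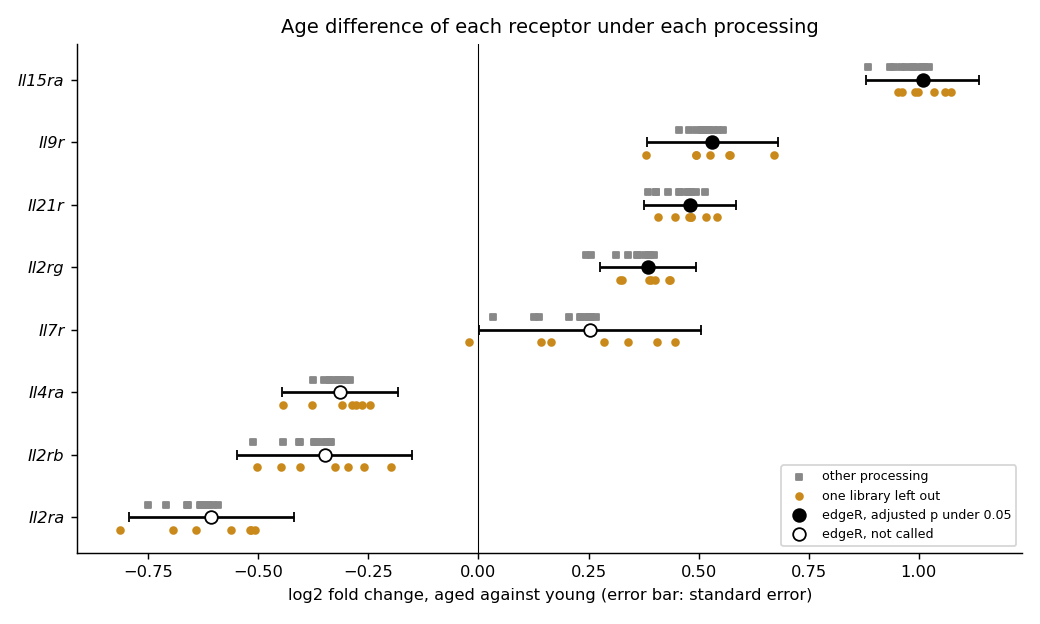
Log2 fold change of each receptor gene, aged against young (horizontal axis), with the standard error of the edgeR fit as a bar, the other processing alternatives as grey squares and the fits without 1 library as ochre points. Il15ra stays between 0.89 and 1.07 in all of them, and Il7r crosses 0 in the fit without aged replicate 1.

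In each neighbouring pair 1 gene was called higher in aged libraries (Il15ra, Il21r), and the other had a negative log2 fold change that was not called (Il2ra, Il4ra). The ratio of Il15ra to Il2ra counts within a library, which does not depend on library size, was 0.0443, 0.0574 and 0.0695 in aged and 0.0159 to 0.0205 in young libraries. The ratio of Il21r to Il4ra was 1.07, 1.63 and 1.52 in aged and 0.743 to 0.859 in young libraries. Both ratios were higher in every aged library than in every young one, by 3.09-fold and 1.74-fold in the geometric mean. These pairs were picked after the values of their genes were seen and were not tested.

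Compared per exon length, Il2rb was the most abundant receptor transcript at both ages, at 218 ± 48.9 CPM per kb in young and 171 ± 29.5 CPM per kb in aged libraries. In young libraries Il2ra came next at 101 ± 16.5 CPM per kb, above Il2rg in every library, with a range that overlapped with that of Il7r. Il2rg (75.2 CPM per kb), Il7r (74.4) and Il21r (66.3) followed with overlapping ranges, then Il4ra (46.1). In aged libraries Il2rg (98.2 CPM per kb), Il21r (92.5), Il7r (88.7) and Il2ra (66.6) followed Il2rb, and the ranges of neighbours in this order overlapped. By these values Il2ra was the second transcript of the family in young libraries and the fifth by the mean in aged ones. The level of Il2rg was divided by its full exon length, of which 30.5% is shared with Gm20489. Counts of that part may be lost, so Il2rg may be understated and its order relative to Il2ra is uncertain. Il9r (5.28 CPM per kb in young, 7.63 in aged) and Il15ra (2.35 and 4.74) were the lowest at both ages.

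**Figure D3:**
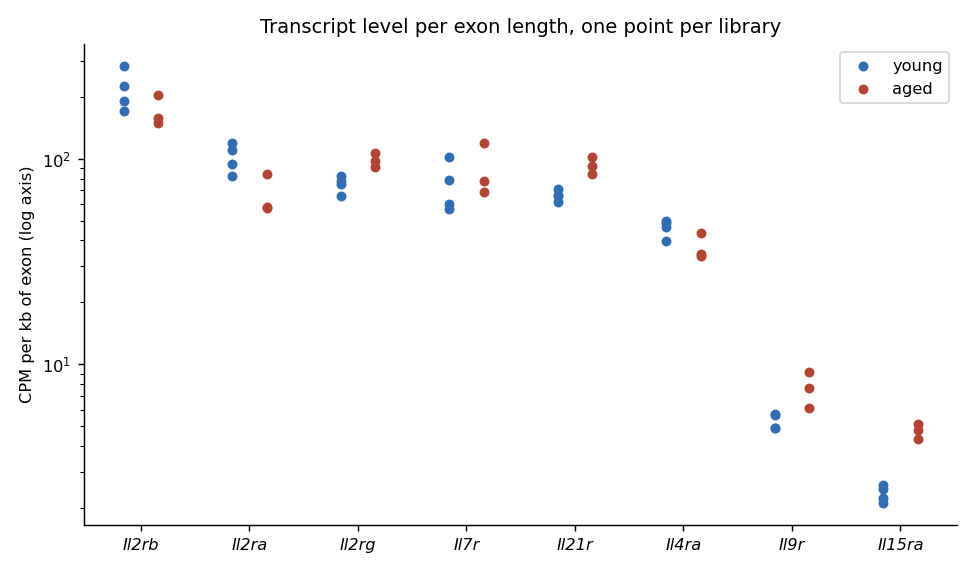
Level of each receptor transcript per kb of exon (CPM per kb, log axis), with 1 point per library, young in blue and aged in red, ordered by the young mean. Il2rb is highest and Il15ra lowest at both ages, and the aged Il2ra points (57.3 to 84.2) overlap with the aged Il7r points (69.1 to 119).

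Ratios of receptor chains within a library were compared next, because the subunits assemble into one receptor and a ratio does not depend on library size. GC content and length trends were not removed from the ratios. The difference between 3 and 4 libraries was tested by exact permutation (two-sided, 8 ratios), which cannot give a p below 0.0571. Alpha to gamma chain transcript (Il2ra to Il2rg) was 2.22, 1.31 and 1.41 in aged and 3.19, 3.69, 3.42 and 2.61 in young libraries. All aged ratios were lower, with geometric means of 1.60 and 3.20, and the aged mean was 0.499 of the young one (SE of the log2 difference 0.262). Beta to gamma (Il2rb to Il2rg) was 4.05, 2.67 and 2.76 against 4.94, 6.54, 5.22 and 4.07, with a log2 difference of -0.72 (SE 0.239). Here aged replicate 1 and young replicate 4 were nearly equal. Alpha to beta (Il2ra to Il2rb) differed less, at 0.548, 0.491 and 0.510 against 0.646, 0.564, 0.655 and 0.643, a log2 difference of -0.28 (SE 0.0685).

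Of the 8 ratios, Il2ra to Foxp3 had the smallest standard error. The ratio was 0.773, 0.697 and 0.732 in aged and 1.31, 1.32, 1.36 and 1.19 in young libraries. Aged values stayed within a narrow band that included aged replicate 1, whose Il2ra CPM had overlapped with the young libraries. The log2 difference was -0.82 (SE 0.0602), which is 1.76-fold higher in young. Foxp3 itself was not called between the ages (log2 fold change 0.21, SE 0.160, adjusted p = 0.409 in edgeR, and 0.05 on the log2 scale without aged replicate 1), and 31.5% of its exon length is shared with other annotated genes. Il2rb to Foxp3 was 1.41, 1.42 and 1.44 in aged and 2.03, 2.34, 2.08 and 1.85 in young libraries, a log2 difference of -0.54 (SE 0.0697).

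Il7r to Il2ra, a pair that separates conventional T cells from Tregs at the protein level, was 1.15, 0.967 and 1.11 in aged and 0.585, 0.697, 0.524 and 0.561 in young libraries. The aged ratio was 1.83-fold higher, with a log2 difference of 0.87 (SE 0.117). The ratios of these 2 genes to Cd4 overlapped between the ages, at -0.32 (SE 0.187) for Il2ra and 0.55 (SE 0.259) for Il7r on the log2 scale. Without aged replicate 1 these 2 values were -0.49 and 0.33. The 6 ratios without overlap each gave the smallest p the exact permutation test allows (0.0571, adjusted over the 8 ratios 0.0762), and the 2 ratios to Cd4 gave 0.114, so none passed 0.05.

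**Figure D4:**
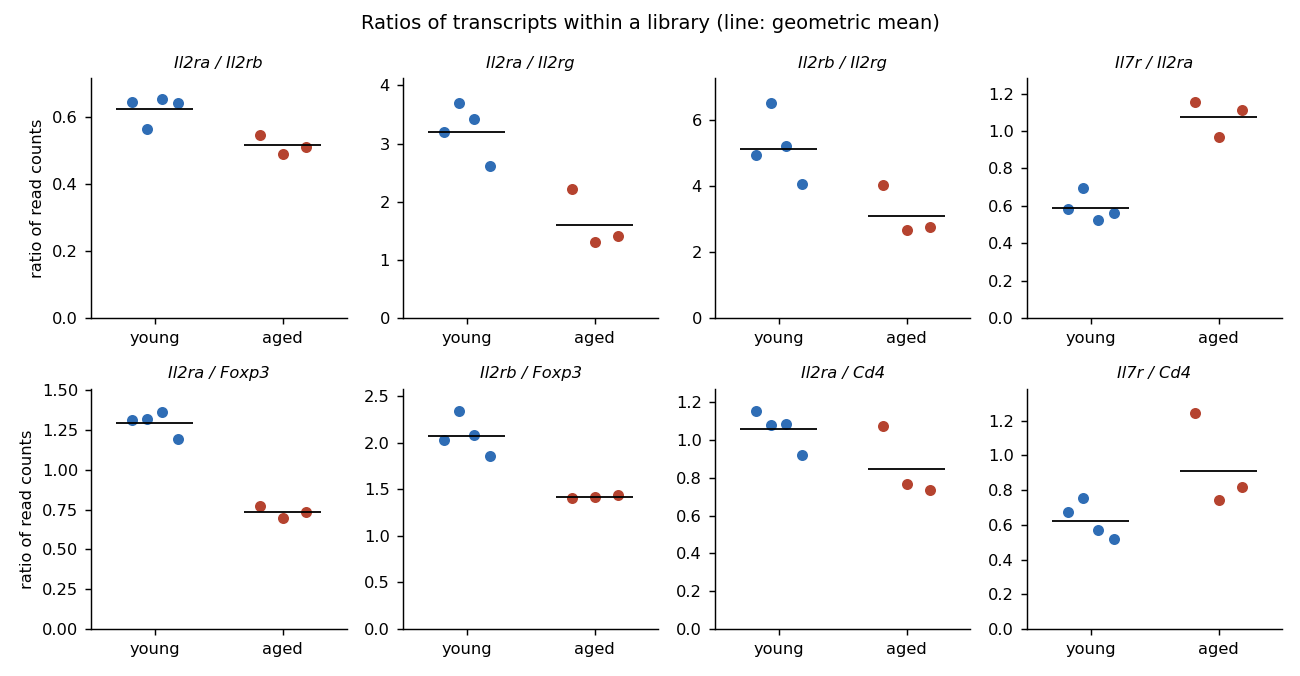
Ratio of read counts of 2 genes within each library (vertical axes from 0, no unit), with a line at the geometric mean of each age. Aged libraries lie apart from young ones in all panels except the 2 ratios to Cd4, as for Il2ra to Foxp3 (0.697 to 0.773 against 1.19 to 1.36).

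Genes that act with the receptors were then compared, 34 of which passed the filter on low counts. Of these, 8 were higher and 6 lower in aged libraries (23.5% and 17.6% of the 34), beside 9.80% and 6.94% of all genes tested. DESeq2 called 18 of them. In the edgeR fits without 1 library, 5 of the 14 genes kept their call each time (Il21, Il7, Il13ra1, Socs3 and S1pr1), and 9 lost it at least once. Those 9 are named with their libraries where they are described. Under the other processing alternatives, the replicate block aside, 10 of the 14 kept their call in each fit that tested them and 4 lost it. With pan T transcripts as library size Jak3, Stat3, Osm and Foxo1 were not called, with library size only Jak3 and Stat3 were not, and with GC content and length trends removed Osm was not. Once the replicate block fits were counted too, only Il21 kept its call in every alternative that tested it. For Il7, Il13ra1, Socs3 and S1pr1 the larger adjusted p of the block fits was 0.0637 to 0.0943 in edgeR. Socs3 kept its call in 17 of its 18 alternatives, and so was called in the other block fit.

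Of the 6 gamma-chain cytokines, 3 were tested and 2 of these were called higher in aged libraries. Il21 had 103, 61 and 144 counts in aged and 4, 9, 7 and 9 counts in young libraries. Every aged library was far above the young ones, and the log2 fold change was 4.09 (SE 0.342, adjusted p = 0.000529 in edgeR). Il7, mostly made by stromal cells, had 10, 21 and 11 counts in aged and 2 or 3 counts in young libraries. Since no young library exceeded the limit of 3 counts, the aged mean of 1.34 CPM was at least 5.11-fold higher than that limit, taken at its largest value over the young libraries (0.262 CPM), with an adjusted p of 0.00624 in edgeR. Il15 was at 26 to 48 counts in aged and 14 to 33 in young libraries, with a log2 fold change of 1.15 (SE 0.365, adjusted p = 0.0647 in edgeR) and, of the fits without 1 library, a call only without young replicate 3 (adjusted p = 0.0278). Il2 (at most 8 counts) and Il4 (at most 14 counts) were too low to test, and Il9 was not matched. The median log2 fold change of the 3 tested cytokines was 2.35 with Il7 at its bound.

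Of the partner chains outside the family, Il13ra1, which pairs with the IL-4 receptor alpha chain, rose from 5.60 ± 0.886 to 12.0 ± 1.65 CPM (log2 fold change 1.10, SE 0.186, adjusted p = 0.00678 in edgeR). The aged libraries ranged from 10.1 to 13.0 CPM and the young ones from 4.30 to 6.24 CPM. Crlf2, which pairs with the IL-7 receptor alpha chain to bind TSLP, was at 22.9 ± 3.82 CPM in aged and 22.7 ± 3.75 CPM in young libraries (log2 fold change 0.02, SE 0.169). Il13ra2 had 1 count in all libraries together.

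Among the 6 kinases and STATs, 2 were called higher and none lower in edgeR. Jak3, whose product binds the gamma chain, was at 252, 240 and 212 CPM in aged and 174, 170, 151 and 176 CPM in young libraries. Like Il2rg, it was higher in each aged library, and the log2 fold change was 0.48 (SE 0.103, adjusted p = 0.0164 in edgeR, and 0.0542 without young replicate 3). Jak1, whose product binds the partner chains, lay lower in each aged library (649, 593 and 574 CPM) than in each young one (812, 831, 743 and 755 CPM). Its log2 fold change of -0.37 (SE 0.111) just missed the threshold in edgeR (adjusted p = 0.0517, and 0.0368 without aged replicate 1) and passed with DESeq2 (adjusted p = 0.00193). The ratio of Jak3 to Jak1 was 0.370 to 0.404 in aged and 0.204 to 0.233 in young libraries, a ratio picked after the values were seen and not tested.

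Stat3, the main STAT of the IL-21 receptor, rose by 0.49 on the log2 scale (SE 0.105, adjusted p = 0.0169 in edgeR), with adjusted p from 0.0575 to 0.0618 without aged replicate 3, young replicate 3 or young replicate 4. Stat5a and Stat5b, which act below the IL-2, IL-7 and IL-15 receptors, had log2 fold changes of -0.11 (SE 0.0786) and -0.19 (SE 0.130) and were not called. Stat6, which acts below the IL-4 receptor, was not called either (-0.21, SE 0.0995). The median of the 6 genes was -0.15.

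Feedback inhibitors of cytokine signalling were mostly not called. Socs3 was at 220, 144 and 146 CPM in aged and 81.3, 79.6, 58.0 and 76.8 CPM in young libraries. It rose 1.20 on the log2 scale (SE 0.181, adjusted p = 0.00427 in edgeR), and its highest library was aged replicate 1, where the neutrophil sum was highest, whose part was not tested. Cish and Socs2, which are induced by STAT5, and Socs1 had log2 fold changes of 0.13 (SE 0.0986), -0.25 (SE 0.159) and 0.25 (SE 0.132). The median of the 4 genes was 0.19.

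Of 13 genes that respond to IL-2 and STAT5, 2 rose, 2 fell and 9 were not called, with a median log2 fold change of 0.11. Bcl2, which protects lymphocytes from apoptosis, fell from 201 ± 23.8 to 136 ± 8.21 CPM (log2 fold change -0.56, SE 0.117, adjusted p = 0.0150 in edgeR, and 0.0590 without aged replicate 3). Myc, which drives growth, fell by 0.71 on the log2 scale (SE 0.156, adjusted p = 0.0189 in edgeR). Its adjusted p was 0.0510 to 0.0582 without aged replicate 2, aged replicate 3, young replicate 1 or young replicate 4. Osm, the cytokine oncostatin M, rose by 0.77 (SE 0.170, adjusted p = 0.0189 in edgeR, and 0.0575 without young replicate 3). Its highest library was aged replicate 1 (39.6 CPM, others 16.5 to 28.0 CPM).

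Prdm1, which encodes Blimp-1 of effector Tregs and plasma cells, rose by 1.20 on the log2 scale (SE 0.307, adjusted p = 0.0326 in edgeR). The call was lost without aged replicate 1, aged replicate 3, young replicate 1, young replicate 3 or young replicate 4 (adjusted p from 0.0678 to 0.0972). Young replicate 2 was the highest young library for Prdm1 (36.2 CPM, others 15.2 to 20.3 CPM) and for the summed plasma cell genes (2003 CPM, others 325 to 497 CPM), a list that holds Prdm1 itself. The plasma cell sum was 749 to 1304 CPM in aged libraries, and its part in Prdm1 was not tested. Gzmb, the protease granzyme B, reached 123 CPM in aged replicate 1, with 7.67 to 17.9 CPM in all other libraries. It was not called (adjusted p = 0.0909 in edgeR).

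The last list held 6 genes that act on Il7r or belong to the FOXO1 programme of lymph node homing and recirculation. Of these, 4 were called lower and none higher, beside 6.94% of all genes tested called lower. Foxo1, which activates Il7r in T cells, fell from 261 ± 25.1 to 179 ± 11.6 CPM (log2 fold change -0.55, SE 0.111, adjusted p = 0.0140 in edgeR, and 0.0543 without aged replicate 3). Klf2, a transcription factor of the same programme, fell by 1.15 on the log2 scale (SE 0.225, adjusted p = 0.0123 in edgeR, and 0.0516 without aged replicate 3). S1pr1, a receptor for exit from lymphoid organs, fell by 0.81 (SE 0.128, adjusted p = 0.00513 in edgeR). Ccr7, a homing receptor, fell by 0.77 (SE 0.175, adjusted p = 0.0213 in edgeR), with adjusted p from 0.0516 to 0.0793 without aged replicate 2, aged replicate 3 or young replicate 1.

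For all 4 genes, which were picked by their calls, each aged library was below each young one. Of all genes tested, 29.9% did not overlap in either direction. Il7r overlapped between the ages. Gabpa, an activator of Il7r, had a log2 fold change of -0.45 (SE 0.136, adjusted p = 0.0533 in edgeR, and 0.0257 and 0.0480 without aged replicate 1 and young replicate 4). Gfi1, a repressor of Il7r, had 0.33 (SE 0.124, adjusted p = 0.107 in edgeR). The median of the 6 genes was -0.66.

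**Figure D5:**
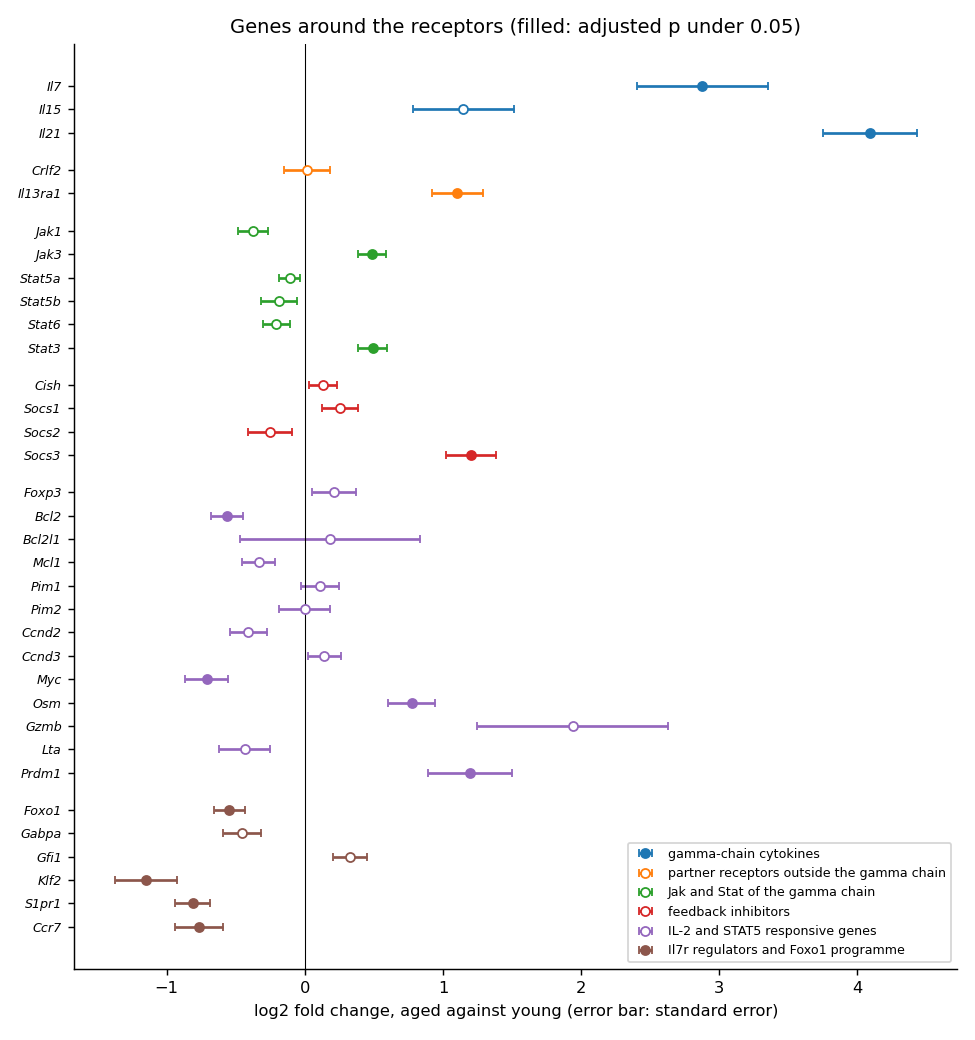
Log2 fold change, aged against young (horizontal axis), of the 34 tested genes around the receptors, coloured by role, with the standard error of edgeR as a bar and filled points for an adjusted p under 0.05. Il21 and Il7 lie farthest to the right, where the fitted value of Il7 rests on young counts of at most 3. The Il7r regulators and FOXO1 programme genes lie to the left of 0 except the Il7r repressor Gfi1.

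The pattern over libraries was also compared with that of other genes, by the root mean square difference of centred log2 CPM over the 7 libraries, among 9426 genes whose log2 CPM averaged 3 or more. This describes likeness over the same 7 libraries, which differ in depth and composition. Within the family, Il21r was most like Il2rg (difference 0.09) and Il2ra most like Il2rb (0.16), while Il2ra and Il15ra were the least alike (0.83). The genes closest to Il2ra were Tubgcp4 (0.04), Dusp10 (0.08), Cog5 (0.08), Ets2 (0.09) and Kansl1 (0.09), and those closest to Il15ra were Stx11 (0.07), S100a6 (0.08), Gbp8 (0.09), Cyfip1 (0.09) and Msantd4 (0.09). The closest to Il7r was the costimulatory receptor Cd28 (0.12), to Il2rb Trbv1 (0.07) and then Socs2 (0.08), to Il2rg Zfp414 (0.04), to Il21r Tut1 (0.04), to Il4ra Vwa9 (0.04) and to Il9r Trim3 (0.08).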

How the data were processed

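RNA of splenic CD4+CD25+ cells (3 aged and 4 young libraries) had been made into cDNA with a SMART-Seq kit, which adds no molecular identifiers, so limits cover counting error only. The authors deposited raw read counts per Ensembl gene, counted without strand by the file names. Rows that name no gene (13.1% to 20.9% of reads, without a gene or with more than 1) were left out. The authors also deposited a series table, with signal values (the counts over 1 size factor per library), and with the log2 fold change, p-value and adjusted p-value of their own comparison, which were not used. The labels give mm10, the aligner is not given in the sources used here, and coordinates are from GENCODE M21 on GRCm38.

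Counts were fitted with edgeR 4.0.16 in R 4.3.3 (TMM, filterByExpr, quasi-likelihood test, Benjamini-Hochberg adjustment over 13904 genes, threshold 0.05). SE was taken as the size of the fold change (log2) divided by the square root of F. CPM is on the TMM scale. Ratios of counts within a library were compared by exact permutation tests (SciPy 1.17.1). Percentages of all genes called come from the same fit. The tests were checked on simulated data.

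Named genes were the 8 receptors, the genes of 6 lists by role, and the 5 genes most like each receptor, by the smallest difference. Some of these genes are not reported here. Other genes are marked where named. The members and lists were chosen with earlier results of these data known. Alternatives were DESeq2 1.42.0, limma voom (limma 3.58.1), RLE, library size only, pan T transcripts as library size, no filter, a minimum of 10 counts per library, removal of haemoglobin, immunoglobulin and mitochondrial genes, GC content and length trends removed, a replicate block, and each library left out. P-values measure the spread between these libraries.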

Additional observations from a re-analysis of the deposited data

Results flagged for a closer look

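The ratio of Il2ra to Il2rb counts was 0.564 in young replicate 2 and 0.643 to 0.655 in the other 3 young libraries. The gap to its nearest neighbour was 0.868 of the range of the 4 young libraries, above Dixon's critical value for 4 samples. It was the only value so marked among 30 checks, and chance marks about 1 in 20 groups. Young replicate 2 also had the highest levels of both genes (684 and 1212 CPM), and it still lay above the highest aged ratio (0.548).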

How the results depend on the processing

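Of 144 alternative values of the receptor fold changes, 103 kept their direction and their side of the threshold. The alternative values of the 6 ratios without overlap say nothing about stability, because no p of 3 against 4 libraries can pass 0.05 and such groups keep their direction when a library is left out. The 2 ratios to Cd4, whose groups overlapped, ranged without 1 library from -0.49 to -0.22 for Il2ra and from 0.33 to 0.70 for Il7r. 1 value reversed. It was Il7r without aged replicate 1 (-0.021). The cause of each change below was not tested.

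Of the receptor genes, 4 were called and 2327 genes in all (58.5% of them higher). The receptor count was 1 with library size only, 1 with pan T transcripts as library size, and 1 to 5 (1237 to 3058 of all genes) without 1 library. With GC content and length trends removed, 44.6% of 2675 calls were higher. Il2ra passed with DESeq2 (-0.63), limma voom (-0.62), no filter (-0.63), GC and length trends removed (-0.66) and in 1 fit without 1 library (range -0.81 to -0.51). Il4ra passed in 1 such fit (range -0.44 to -0.25). Il2rg missed the threshold with library size only (0.31), pan T transcripts (0.34), no filter (0.36) and GC and length trends removed (0.24), and ranged from 0.32 to 0.44 without 1 library. Il21r missed it with library size only (0.40) and pan T transcripts (0.43), with a range of 0.41 to 0.54 without 1 library. Il9r missed it with limma voom (0.51), library size only (0.45), pan T transcripts (0.48) and no filter (0.51), with a range of 0.38 to 0.67 without 1 library. Il7r ranged from -0.021 to 0.45 without 1 library and was 0.13 with GC and length trends removed.

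Same-numbered libraries did not deviate together (correlations of deviations across genes -0.09, -0.29 and -0.14). The labels give no pairing beyond the number, and whether same-numbered libraries were processed together was not tested. With the replicate block 0 receptor genes and 292 genes in all were called, and 0 and 281 with the block and GC and length trends removed. Il15ra had the lowest adjusted p of the receptor genes in both, at 0.0575 and 0.0715 in edgeR. Under these 2 block fits the log2 fold changes were 0.39 and 0.26 for Il2rg, 0.96 and 0.89 for Il15ra, 0.51 and 0.40 for Il21r, 0.56 and 0.52 for Il9r, and 0.14 and 0.032 for Il7r.

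Counting error is small beside the spread between libraries except for Il15ra (9.37% at its lowest count) and Il9r (5.73%). Il2, Il4 and Il13ra2 were too low to compare.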
